A study of Rattus norvegicus with 14 samples.

Results

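The set described here holds 98 nuclear genes whose products make up the mitochondrial respiratory chain, the ATP synthase, the mitochondrial ribosome and the machinery that brings proteins into mitochondria. The rule that chose them uses gene symbols alone, from the families Nduf, Sdha to Sdhd, Uqcr, Cox4 to Cox8, Cox10 to Cox19, Atp5, Mrpl, Mrps, Tomm, Timm and Idh3. Of 2993 genes with a symbol among the candidate transcription start sites (TSSs) of the study, 98 matched, and these genes held 130 of the 4993 candidate TSSs. A candidate TSS is a cluster of transcript 5′ ends found in rat sciatic nerve within 1 kilobase of a promoter mark (H3K4me3) that overlapped binding of SOX10. This transcription factor is needed by Schwann cells and is also present in other cell types, such as melanocytes. Each gene stands here for 1 TSS, the one with the highest mean level in nerve. A single candidate TSS was present at 77 of the genes, and the other 21 genes held 32 further TSSs.

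Transcript 5′ ends were measured by Tn5Prime, a method that captures the 5′ end of each RNA by template switching, in 14 libraries. The 2 nerve libraries came from wild type adult rats aged 6–9 months. Primary rat Schwann cells, also wild type, were moved to low-serum medium after withdrawal of neuregulin and forskolin. By the labels, 3 libraries came from cells whose low-serum medium was renewed for 4 days (control) and 3 from cells given 250 uM CPT-cAMP from the day after the move, renewed for 3 days (cAMP), an agent that drives Schwann cells in culture to differentiate. The study's methods give both groups the same schedule, with vehicle or CPT-cAMP added on the same day, so the different day counts need not mean different times in low serum. The remaining libraries came from S16, an immortalised rat Schwann cell line: 2 RNA samples of the 1 parental line, and 4 clones without SOX10 (ΔSOX10), made with CRISPR/Cas9 and guide RNAs against the first coding exon of Sox10. Each ΔSOX10 sample is 1 clone and no unedited clone was among the samples, so that clonal growth and loss of SOX10 cannot be told apart. Values are RPM, the reads at a TSS scaled to the total reads of the whole library. Each transcript is read at its 5′ end, so RPM were not divided by transcript length. Whether capture depends on length was not tested. Library totals ran from 29895599 reads in a nerve library to 79940274 in a cAMP library, and 3 reads, the level taken as the limit of detection, corresponded to between 0.0375 and 0.1 RPM. Sox10 itself, at its highest TSS in nerve, was at 90.7 and 77.5 RPM in the parental libraries and at 0.0255, 0.0254, 0 and 0.114 RPM in the ΔSOX10 clones, so that the labels hold for all 6.

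The respiratory chain moves electrons from NADH and succinate to oxygen through complexes I to IV and pumps protons as it does so, and the ATP synthase uses the resulting gradient to make ATP. Complexes I, III, IV and V are built from nuclear-encoded subunits, which enter through the TOM complex of the outer membrane and the TIM complexes of the inner membrane, and from subunits encoded in mitochondrial DNA and translated by the mitochondrial ribosome. Complex II is wholly nuclear-encoded. Promoters of such genes in mammals often hold sites for the factors NRF1, GABP and YY1, and mitochondrial function in Schwann cells is needed to maintain peripheral axons.

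The promoters of 7 of the genes are shown first because the results below turn on them: Ndufv3, Ndufa12, Ndufa5 and Cox7a2 were among those with the clearest differences between cultures, Atp5mc2 and Cox8a carry several matches or were among the most abundant, and Sdhc has a second TSS that behaved differently from its first. These 7 were picked after the values were seen. Each window is 300 bases of the RefSeq assembly GRCr8, from 250 bases before the annotated gene start to 50 bases after it, written 5′ to 3′ on the gene's strand, with motif matches in capitals. The deposited TSS positions are on another build (rn5), and they were not placed on these windows.
Ndufv3 (chr20:9613536-9613835, plus strand): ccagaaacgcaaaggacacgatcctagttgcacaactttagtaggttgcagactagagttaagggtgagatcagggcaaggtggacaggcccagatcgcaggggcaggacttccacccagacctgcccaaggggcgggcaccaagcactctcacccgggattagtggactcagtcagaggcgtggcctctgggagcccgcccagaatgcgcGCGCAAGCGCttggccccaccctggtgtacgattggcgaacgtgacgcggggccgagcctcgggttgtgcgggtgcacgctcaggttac
Ndufa12 (chr7:30658066-30658365, plus strand): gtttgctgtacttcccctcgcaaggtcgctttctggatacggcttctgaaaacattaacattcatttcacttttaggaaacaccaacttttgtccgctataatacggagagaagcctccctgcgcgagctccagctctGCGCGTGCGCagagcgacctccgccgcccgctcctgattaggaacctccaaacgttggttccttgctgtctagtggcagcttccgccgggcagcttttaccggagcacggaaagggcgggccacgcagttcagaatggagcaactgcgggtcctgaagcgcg
Ndufa5 (chr4:53971186-53971485, minus strand): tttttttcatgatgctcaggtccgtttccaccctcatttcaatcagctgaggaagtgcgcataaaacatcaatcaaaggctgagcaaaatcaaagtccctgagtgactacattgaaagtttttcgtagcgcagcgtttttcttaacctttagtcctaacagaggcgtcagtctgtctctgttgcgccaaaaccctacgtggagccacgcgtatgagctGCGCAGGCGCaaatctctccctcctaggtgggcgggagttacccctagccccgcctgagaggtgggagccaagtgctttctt
Cox7a2 (chr8:89601100-89601399, minus strand): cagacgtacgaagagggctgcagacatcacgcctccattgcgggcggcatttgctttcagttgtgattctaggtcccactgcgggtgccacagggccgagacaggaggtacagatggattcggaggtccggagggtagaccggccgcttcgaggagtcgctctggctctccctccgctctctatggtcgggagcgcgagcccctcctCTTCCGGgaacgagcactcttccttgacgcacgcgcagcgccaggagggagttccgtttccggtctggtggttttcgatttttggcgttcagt
Atp5mc2 (chr7:135678169-135678468, minus strand): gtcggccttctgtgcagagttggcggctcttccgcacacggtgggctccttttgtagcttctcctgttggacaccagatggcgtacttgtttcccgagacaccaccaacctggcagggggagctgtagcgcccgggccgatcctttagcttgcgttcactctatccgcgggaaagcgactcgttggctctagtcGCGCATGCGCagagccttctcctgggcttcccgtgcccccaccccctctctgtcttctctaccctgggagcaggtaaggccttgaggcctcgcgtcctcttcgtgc
Cox8a (chr1:213833574-213833873, minus strand): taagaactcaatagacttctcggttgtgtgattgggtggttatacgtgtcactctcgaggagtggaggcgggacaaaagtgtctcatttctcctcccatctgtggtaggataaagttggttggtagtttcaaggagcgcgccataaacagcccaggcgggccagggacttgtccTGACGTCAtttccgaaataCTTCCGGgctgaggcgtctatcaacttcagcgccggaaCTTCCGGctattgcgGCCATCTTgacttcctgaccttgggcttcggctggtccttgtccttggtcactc
Sdhc (chr13:86097976-86098275, minus strand): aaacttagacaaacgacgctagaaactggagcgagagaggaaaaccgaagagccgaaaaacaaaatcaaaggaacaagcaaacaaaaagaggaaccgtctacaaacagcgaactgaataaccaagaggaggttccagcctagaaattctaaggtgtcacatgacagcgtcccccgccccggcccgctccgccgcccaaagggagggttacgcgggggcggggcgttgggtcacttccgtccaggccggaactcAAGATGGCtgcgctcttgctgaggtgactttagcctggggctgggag
The capitals mark an NRF1 motif in Ndufv3, which begins 39 bases before the gene start, in Ndufa12 (112 bases before), in Ndufa5 (32 bases before) and in Atp5mc2 (56 bases before, matching on both strands). They mark an ETS motif, the kind bound by GABP, 43 bases before the start of Cox7a2. The Cox8a window has the most kinds of match, with ETS motifs 57 and 19 bases before the start, a cAMP response element 76 bases before it and a YY1 motif 4 bases before it. In Sdhc the capitals mark a YY1 motif that begins 3 bases after the start.

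Across the set, 5 motifs were searched for exact matches on both strands. All 98 symbols were found in RefSeq and 88 of the genes had a promoter window. The NRF1 motif (GCGCA, then any base, then GCGC) was in 20 of the 88 windows (22.7%), against 12.0% of the 2706 windows of candidate genes and 4.25% of all 33469 rat promoter windows. The YY1 motif AAGATGGC was in 20 (22.7%), against 7.13% and 3.17%. The ETS motif CCGGAAG was in 28 (31.8%), against 23.4% and 8.75%. The cAMP response element TGACGTCA, which reads the same on both strands, was in 3 windows (3.41%, against 3.62% and 1.83%), and the SOX core ACAAAG was in 7 (7.95%, against 12.7% and 18.8%). None of these 5 motifs contains another, 33 of the 88 windows held none of them, and a match describes the letters in a window, not a bound site.

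The 98 TSSs lay on 20 chromosomes. Nearly all, 96 (98.0%), overlapped an H3K4me3 peak directly, against 96.0% of all candidate genes, and 77 (78.6%) overlapped a SOX10 peak directly, against 70.0%. These genes were abundant. Their median level in nerve was 68.4 RPM, from 2.06 to 478 RPM, against a median of 12.0 RPM for all candidate genes, and 41 of them (41.8%) were above 100 RPM in nerve, against 10.9%. Highest in nerve were Uqcr11, a small subunit of complex III, at 461 and 494 RPM, Atp5pd, a stalk subunit of the ATP synthase, at 408 and 540.3 RPM, Cox7a2, a subunit of complex IV, at 400.03 and 535 RPM, and Cox8a, another, at 432 and 502 RPM. The ranges of these 4 genes overlapped, so they have no order among themselves. Lowest were Mrpl2, a protein of the large mitochondrial ribosomal subunit, at 1.57 and 2.55 RPM, and Mrpl28, another, at 4.28 and 2.27 RPM.

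The spread between replicates was as follows. The median SD of log2(RPM + 1) between libraries of a group was 0.18 in nerve, 0.13 in control, 0.13 in cAMP, 0.12 in parental S16 and 0.24 in ΔSOX10 cells, against 0.31, 0.23, 0.25, 0.18 and 0.38 over all candidate genes and 0.15, 0.10, 0.12, 0.10 and 0.26 over those at 50 RPM or more in nerve. The members' spread was thus lower than that of all candidate genes. Except among the ΔSOX10 clones, it was not lower than that of genes at 50 RPM or more in nerve. Only 59 members reached that level, and their spread alone was not computed. The wider spread in the ΔSOX10 group is that between 4 separate clones.

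**Figure D1:**
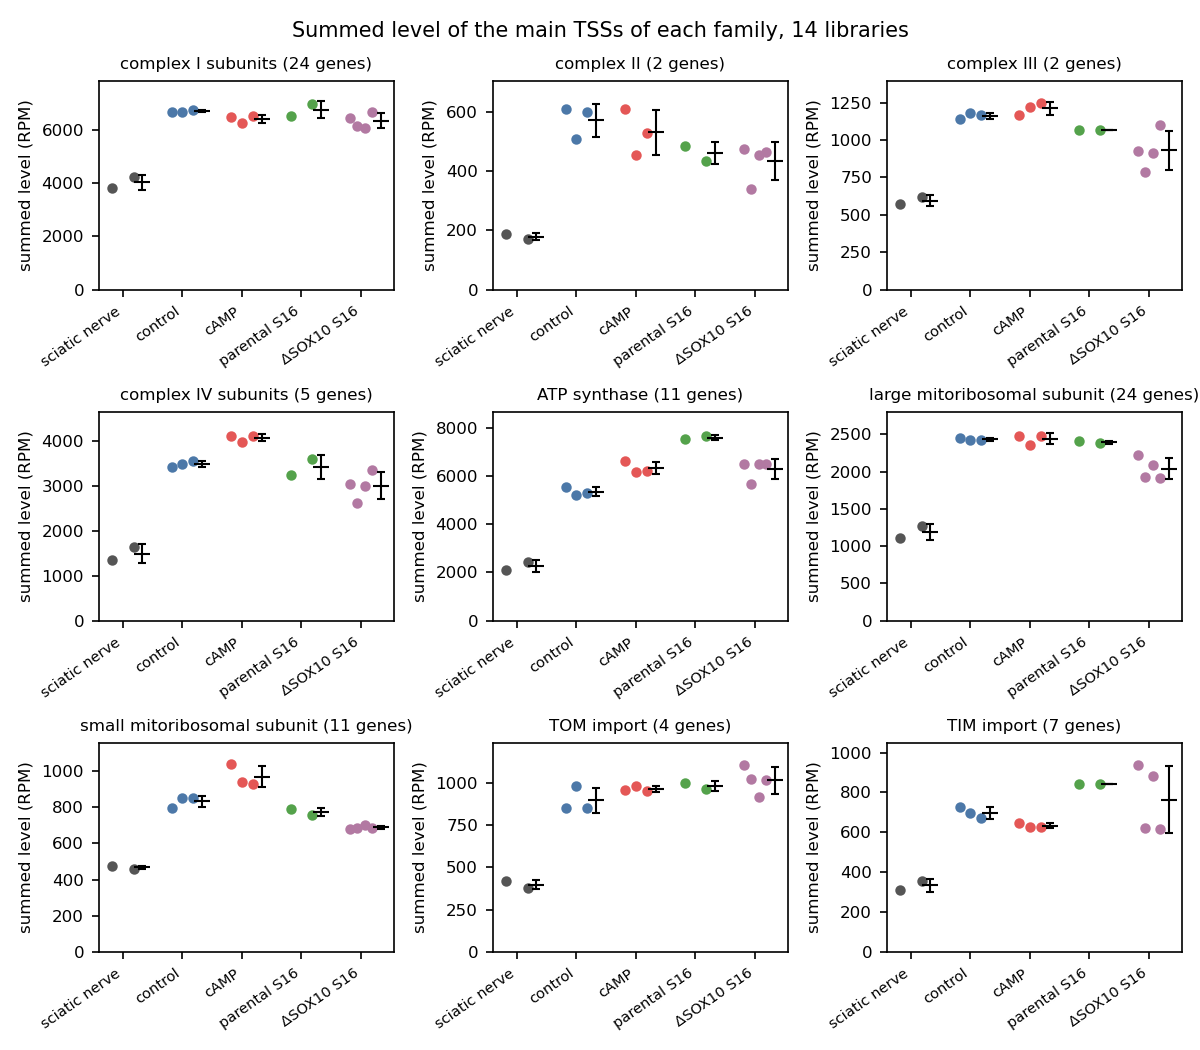
Summed RPM of 9 gene families (1 panel each, linear axis from 0) in each library of the 5 groups (points), with the mean and 1 SD as black marks beside them. ATP synthase and complex IV sums were higher with cAMP than in control, complex I sums were lower. In RPM all 9 sums were lowest in nerve, but this depends on the scaling. With median-ratio factors over the 14 libraries the complex I sum was higher in nerve (6587) than in control (5464). The sums of complex III and of the small mitochondrial ribosomal subunit were then also higher in nerve than in control.

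The first comparison asked which of these genes differed when primary Schwann cells were treated with cAMP. Of the 98 genes, 97 passed the filter (above 1 RPM in at least 2 of the 6 libraries, Mrpl28 did not). At a limma adjusted p below 0.05, 18 were higher with cAMP, 8 were lower and 71 were not called, and 40 of the 97 had an unadjusted p below 0.05. The 18 higher genes became 9 with edgeR's exact test, 9 without control 3 or cAMP 1, 10 without control 1 and 3 in a model of all 14 libraries, where the 8 lower genes became 4. DESeq2 called more, 22 higher and 12 lower. Over all 2832 candidate genes tested in the same way, 13.5% were higher and 13.9% lower, 27.4% in all, so that the members' share was near that of all candidate genes. Abundant genes were called more often. Over the 1032 genes with a mean of at least 50 RPM, a limit chosen after the data were seen, 22.1% were higher and 22.9% lower, 45% in all, while 17 of the 81 members at that level were higher and 8 lower. The median log2 fold change was 0.10 for the members and -0.030 for all genes tested, and 66 of the 97 members had a positive value. The libraries of control and cAMP did not overlap for 38 of the 97 members, against 40.6% of all genes, and for 36 of the 81 at 50 RPM or more, against 57.1%. The differences were small. The largest called increase was 0.73 and the largest called decrease 0.79 on the log2 scale of RPM + 1, and none of the 26 called genes reached a 2-fold change. In bulk samples, a lower share of cells that use a TSS and less RNA per cell cannot be told apart.

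**Figure D2:**
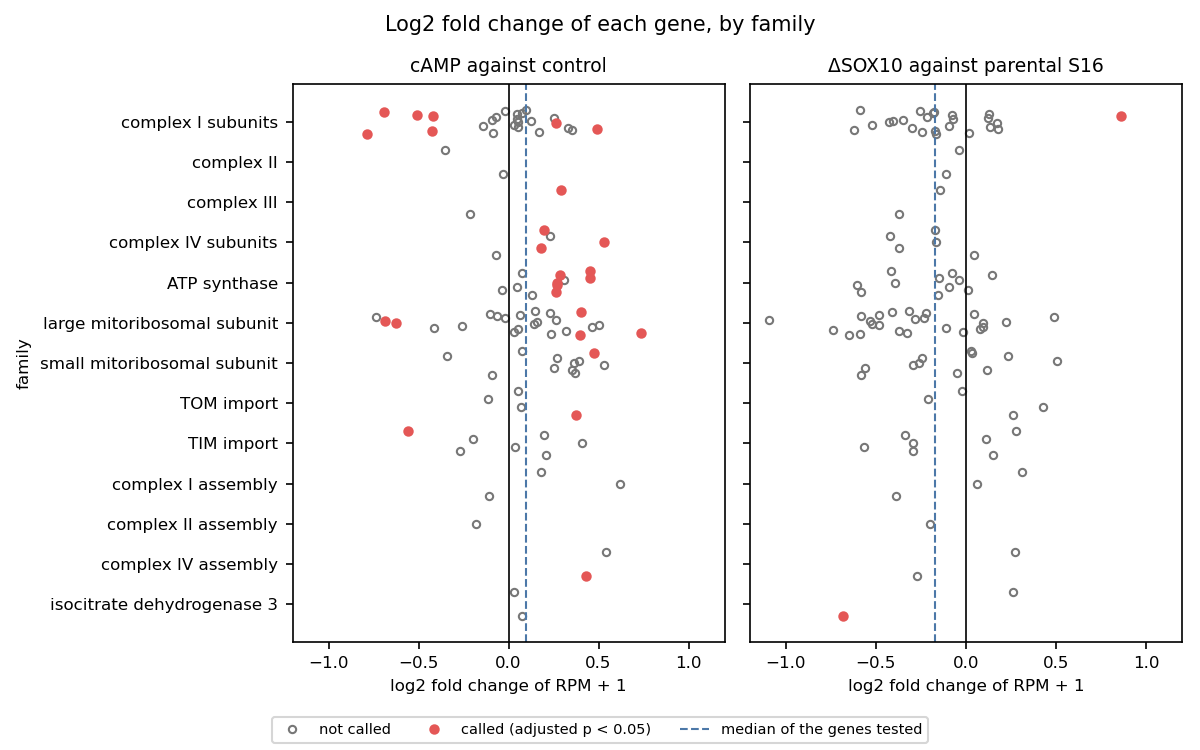
Log2 fold change of each gene on the RPM + 1 scale, by family (13 rows), for cAMP against control (left) and ΔSOX10 against parental S16 (right). Red points passed an adjusted p of 0.05, open points did not, and the dashed line is the median of the members tested (0.10 left, -0.17 right).

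Complex I, which takes electrons from NADH, is the largest family tested. Of its 24 tested subunits 5 were lower (20.8%, against 22.9% of all genes at 50 RPM or more) and 2 higher with cAMP, with a median log2 fold change of 0.049, and the summed level of the family went from 6695 ± 39.7 RPM (SD, n = 3) in control to 6403 ± 143 RPM (SD, n = 3) with cAMP. Ndufv3, an accessory subunit of the NADH-oxidising arm (rn5 chr20:12455091-12455217), was at 227, 242 and 210 RPM in control and at 138, 131 and 123 RPM with cAMP. Every cAMP library was far below every control library, and the fall, 0.79 ± 0.11 (SE) on the log2 scale, was the largest called decrease in the set (limma adjusted p = 1.58e-05).

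Ndufa12, an accessory subunit of the same arm (rn5 chr7:35193697-35193838), was at 595, 570 and 603 RPM in control and 394, 364 and 339 RPM with cAMP. The groups again stood well apart, and Ndufa12 fell by 0.69 ± 0.08 on the log2 scale (limma adjusted p = 1.3e-06). Ndufs7, a core subunit that carries the last iron-sulfur cluster before ubiquinone, went from 286, 297 and 262 RPM to 218, 207 and 203 RPM. It fell by 0.43 ± 0.10 (adjusted p = 0.00283), with no overlap between groups. Ndufa5, an accessory subunit of the peripheral arm, went from 319, 334 and 370 RPM to 246, 281 and 238 RPM and fell by 0.42 ± 0.10 (adjusted p = 0.00322). Ndufa3, a small membrane-bound subunit, was at 226, 300 and 280 RPM in control and 170, 205 and 188 RPM with cAMP, a fall by 0.51 ± 0.12 (adjusted p = 0.00252). The control values of Ndufa3 were more scattered, and the lowest of them lay just above the highest cAMP value.

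The remaining called complex I genes rose. Ndufs3, a core subunit of the ubiquinone-binding part, was at 90.5, 107 and 89.3 RPM in control and 132, 124 and 148 RPM with cAMP, a rise of 0.49 ± 0.14 on the log2 scale (limma adjusted p = 0.0112). Ndufb9, an accessory subunit of the far membrane arm, was at 433, 449 and 426 RPM and then 566, 484 and 523 RPM, a rise of 0.26 ± 0.08 (adjusted p = 0.0234). For both genes all 3 cAMP libraries lay above all 3 control libraries. The other 17 subunits were not called by limma. DESeq2 called 3 subunits higher and 5 lower. Ndufs4, a late-assembled accessory subunit, had a log2 difference of 0.35 (adjusted p = 0.0624), and the abundant Ndufa13 was at a mean of 538 RPM in control and 567 RPM with cAMP.

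**Figure D3:**
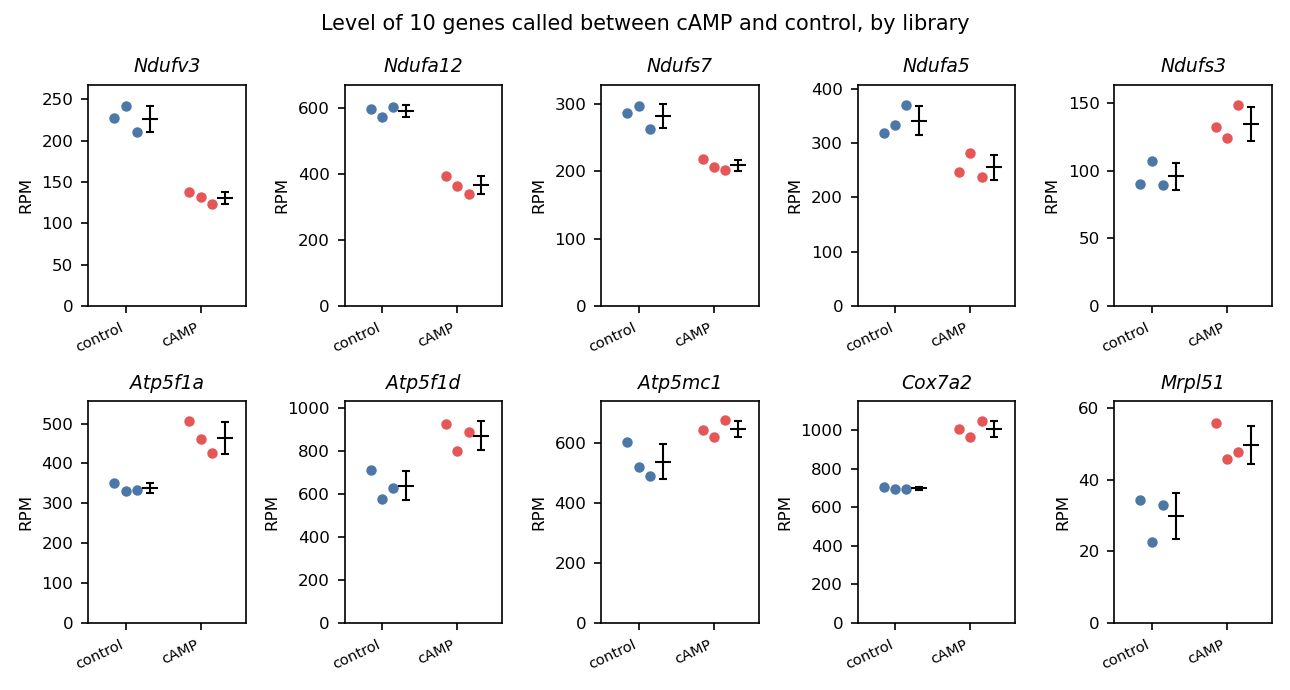
RPM in each control and cAMP library (points, linear axes from 0, black marks for the mean and 1 SD) for 10 called genes. Ndufv3, Ndufa12, Ndufs7 and Ndufa5 were lower with cAMP and Ndufs3, Atp5f1a, Atp5f1d, Atp5mc1, Cox7a2 and Mrpl51 higher, and the groups of each gene do not overlap.

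Called genes of the ATP synthase were all higher with cAMP. Of its 11 tested genes 6 rose with cAMP and none fell in limma, where 13.5% of all genes, and 22.1% of those at 50 RPM or more, were higher. DESeq2 also called 6 higher, edgeR's quasi-likelihood test 4 and its exact test 2. The median log2 fold change was 0.27, and the 11 genes' summed level went from 5360 ± 182 RPM in control to 6339 ± 242 RPM with cAMP (SD, n = 3 each). Atp5f1d, the delta subunit of the central stalk, was at 711, 578 and 626 RPM in control and at 928, 799 and 889 RPM with cAMP. Control libraries varied, yet the highest of them was below the lowest cAMP library, and Atp5f1d rose by 0.45 ± 0.08 on the log2 scale (limma adjusted p = 0.000243).

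Atp5f1a, the alpha subunit of the catalytic ring, was at 351, 330 and 334 RPM in control and 507, 461 and 427 RPM with cAMP (rise of 0.45 ± 0.09, limma adjusted p = 0.000508). Atp5f1c, the gamma subunit that turns within the ring, was at 362, 300.4 and 328 RPM and then 420, 398 and 386 RPM (0.28 ± 0.09, adjusted p = 0.0273). In both, all cAMP libraries were above all control libraries, by the narrower margin for Atp5f1c. The proton-conducting c ring is encoded by several genes that give the same mature protein. Of these, Atp5mc1 went from 603, 519 and 491 RPM to 644, 619 and 675 RPM (0.27 ± 0.08, adjusted p = 0.0212) and Atp5mc2 from 645, 693 and 722 RPM to 836, 868 and 777 RPM (0.27 ± 0.07, adjusted p = 0.00919). Atp5pd, the d subunit of the outer stalk, went from 944, 845 and 868 RPM to 1138, 994 and 1056 RPM (0.26 ± 0.07, adjusted p = 0.0083). The groups did not overlap for either of these c-ring genes or for Atp5pd. The remaining c-ring gene, Atp5mc3, was not called, at 414, 328 and 381 RPM in control and 392, 363 and 400.3 RPM with cAMP (log2 difference of 0.047, adjusted p = 0.793), and its groups overlapped.

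Complex IV, which passes electrons to oxygen, had 5 structural subunits in the set, of which 3 rose and none fell in limma (median log2 fold change 0.19), beside the 22.1% higher among all genes at 50 RPM or more. DESeq2 called 4 of them higher, edgeR's quasi-likelihood test 2 and its exact test 1. Their sum went from 3497 ± 64.1 RPM to 4083 ± 75.7 RPM (SD, n = 3 each). Cox7a2, the form of subunit 7a found in most tissues (rn5 chr8:86757413-86757547), was at 706, 694 and 693 RPM in control and at 1007, 966 and 1049 RPM with cAMP. The control libraries were almost equal and all cAMP libraries were well above them, a rise of 0.53 ± 0.07 on the log2 scale (limma adjusted p = 2.39e-06). The increases in Cox4i1, a subunit that sets the regulation of the enzyme, and Cox8a, the smallest, were slighter. Cox4i1 went from 951, 888 and 970 RPM to 1082, 1028 and 1103 RPM (0.19 ± 0.07, adjusted p = 0.0331) and Cox8a from 947, 992 and 968 RPM to 1114, 1148 and 1034 RPM (0.18 ± 0.06, adjusted p = 0.047). Groups did not overlap for either gene, but the calls were the least stable of the family, lost in 8 of 19 alternatives for Cox4i1 and in 11 of 19 for Cox8a. Cox19, which helps bring copper to complex IV and is not part of it, rose from 82.6, 74.3 and 78.3 RPM to 114, 111 and 94.3 RPM (0.43 ± 0.15, adjusted p = 0.0337), while Cox18, an insertase, had a log2 difference of 0.54 that was not called (adjusted p = 0.460).

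Complexes II and III were represented by few genes. Uqcr11 rose with cAMP from 551, 588 and 610 RPM to 673, 689 and 777 RPM (0.29 ± 0.08, limma adjusted p = 0.00875), with no overlap. The other complex III gene, Uqcrc1, a large core subunit, was at 579 ± 17.4 RPM in control and 499 ± 33.1 RPM with cAMP and was not called by limma (log2 difference of -0.22, adjusted p = 0.0518). DESeq2 called Uqcr11 higher and Uqcrc1 lower, and edgeR's exact test called neither. Neither of the 2 complex II genes was called by limma or edgeR, with 1 at an unadjusted p below 0.05, and DESeq2 called 1 lower. Sdha, which holds the succinate-binding site, was at 159 ± 13.7 and 125 ± 18.3 RPM (-0.35, adjusted p = 0.0612), and the main TSS of Sdhc, a membrane anchor, was at 412 and 406 RPM (-0.028, adjusted p = 0.897).

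The mitochondrial ribosome translates the subunits encoded in mitochondrial DNA. Of 23 genes of its large subunit 3 rose and 2 fell in limma, 13.0% and 8.70%, where 13.5% of all genes were higher and 13.9% lower. Their median log2 fold change was 0.14, with sums of 2431 ± 18.8 RPM in control and 2441 ± 74.0 RPM with cAMP. Mrpl33 fell from 416, 433 and 417 RPM to 304, 250 and 268 RPM (by 0.63 ± 0.09, limma adjusted p = 2.44e-05), with a wide gap between the groups. Mrpl3 fell by 0.69 ± 0.18 (adjusted p = 0.00663). Its control libraries were at 108, 87.8 and 94.9 RPM and its cAMP libraries at 49.8, 53.4 and 79.2 RPM, so that the third cAMP library came near the controls.

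Mrpl51 had the largest called increase in the set, 0.73 ± 0.22 (limma adjusted p = 0.018), from 34.4, 22.5 and 32.9 RPM to 55.8, 45.7 and 47.7 RPM. Mrpl12, a stalk protein that also binds the mitochondrial RNA polymerase, rose from 158, 123 and 141 RPM to 159, 183 and 217 RPM (0.40 ± 0.13, adjusted p = 0.0327). The first cAMP library was level with the first control library for Mrpl12, so that the groups almost touch. Mrpl57 rose from 148, 154 and 132 RPM to 193, 192 and 187 RPM (0.40 ± 0.11, adjusted p = 0.0135), its cAMP libraries close together. In the small subunit limma called 1 of 11 genes higher, 9.09% against the 13.5% of all genes, and none lower, where DESeq2 called 2 higher and 1 lower. The median log2 fold change was 0.35, with sums of 833 ± 31.6 and 971 ± 60.2 RPM. That gene was Mrps18b, which went from 78.6, 77.2 and 73.9 RPM to 119, 113 and 90.2 RPM (0.47 ± 0.15, adjusted p = 0.0243).

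Of the genes of protein import, 1 of 4 in the TOM complex and 1 of 7 in the TIM complexes were called by limma, beside 27.4% of all genes. Tomm7, a small subunit of the outer membrane pore, rose from 202, 235 and 205 RPM to 265, 290.1 and 276 RPM (0.38 ± 0.10, limma adjusted p = 0.00936), and limma, both edgeR tests and DESeq2 each called 1 TOM gene higher. The receptor Tomm20 was at 426 RPM in control and 441 RPM with cAMP and was not called. Timm10, a chaperone of the space between the membranes, fell by 0.56 ± 0.19 in limma (adjusted p = 0.0414), a call lost in 9 of 19 alternatives. Of the TIM genes DESeq2 called 2 lower, edgeR's exact test 1 and its quasi-likelihood test 0. Its controls were at 88.3, 55.0 and 60.9 RPM and its cAMP libraries at 47.2, 44.6 and 43.1 RPM, and without the first control library the log2 difference was -0.36 and was not called. Timm23, the inner membrane channel, was at 248 and 206 RPM (-0.27, adjusted p = 0.0605). None of the 3 complex I assembly genes was called by limma (1 at an unadjusted p below 0.05), and DESeq2 called 1 higher. The 1 complex II assembly gene and the 2 genes of isocitrate dehydrogenase were called by none of limma, edgeR and DESeq2, with 0 at an unadjusted p below 0.05.

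Of the 26 called genes, 6 kept their call in 19 alternative settings (other tools, scalings, filters and pseudocounts, and each library left out), which do not count an added minimum of 1 on the log2 scale that no gene reached: Ndufa12, Ndufv3, Ndufs7, Mrpl33, Cox7a2 and Atp5f1d. Leaving out some single library ended the call of 17 of the 26, among them Mrpl51, Mrpl3 and 4 of the 6 ATP synthase genes (Atp5f1c, Atp5mc1, Atp5mc2 and Atp5pd), while Atp5f1a, Ndufa5 and Ndufa3 kept theirs without any 1 library. All 5 complex I decreases were among the calls that held without any 1 library.

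Called genes were found both on and beside SOX10 peaks. Of the 77 tested genes whose TSS overlapped a SOX10 peak 13 were higher and 8 lower with cAMP (median log2 fold change 0.14), and of the 20 beside a peak 5 were higher and none lower (0.07). Of all candidate genes, 13.0% of those on a peak were higher and 13.2% lower, and 14.8% and 15.6% of those beside one. They were also found with and without each motif. Among the 20 genes with an NRF1 match 5 were higher and 3 lower (median 0.09), and among the 68 without one 10 were higher and 5 lower (0.07). The 28 genes with an ETS match had 6 higher and 3 lower (median 0.049), and the 60 without one had 9 higher and 5 lower (0.13). The 20 with a YY1 match had 2 higher and 2 lower (median 0.10), and the 68 without one had 13 higher and 6 lower. The cAMP response element was in 3 tested genes, with 1 higher, and the SOX core in 7, with 1 higher, while 15.8% of all candidate genes with the former were higher and 6.32% lower, and 12.3% and 11.3% of those with the latter. Over all candidate genes, 8.28% of those with an NRF1 match were higher and 11.1% lower, 7.69% and 12.5% of those with an ETS match, and 8.42% and 10.5% of those with a YY1 match. No test of these differences was made.

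Whether loss of SOX10 altered these genes was the question of the second comparison. All 98 were tested in the S16 libraries. At a limma adjusted p below 0.05, 1 was higher in ΔSOX10 cells, 1 was lower and 96 were not called, with 16 at an unadjusted p below 0.05. In simulated data this design found 31% of 2-fold changes, so a gene that was not called may still differ. The lower count was 0 with median-ratio or TMM factors, 0 when any 1 library was left out, 3 with edgeR's exact test and 7 in a model of all 14 libraries. The higher count was 0 when any 1 library other than clone 2-1 was left out, and edgeR's quasi-likelihood test called 0 in either direction, with 12 at an unadjusted p below 0.05. Over the 2763 candidate genes tested, 1.99% were higher and 5.5% lower, 7.49% in all, and over the 876 at a mean of 50 RPM or more, 3.77% were higher and 6.39% lower, 10.2% in all, where 73 members had 1 called in each direction. Parental and ΔSOX10 libraries did not overlap for 32 of the 98 members, against 30.1% of all genes, and for 28 of the 73, against 37.4%. The median log2 fold change was -0.17 for the members and also -0.17 for all genes, and 30 of the 98 members had a positive value. The shift depends on the scaling. With median-ratio or TMM factors in place of library totals, the median over all 3875 TSSs tested went from -0.18 to -0.050 and that of the members became -0.025 and -0.026. The summed level of all 98 genes was 24722 ± 578 RPM (SD, n = 2) in parental cells and 21879 ± 1210 RPM (SD, n = 4) in the clones, a difference that depends on the scaling too. With median-ratio factors over the 14 libraries the sums were nearly equal, 23462.6 ± 1419 in parental cells and 23494.5 ± 301 in the clones.

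Ndufa5, the complex I subunit that fell with cAMP, was the gene that was higher without SOX10 (rn5 chr4:51376874-51377026). It was at 234 and 264 RPM in parental cells and at 402, 597, 363 and 483 RPM in the 4 clones. All clones were above both parental libraries but they differed widely from each other, and the log2 difference was 0.86 ± 0.22 (limma adjusted p = 0.0457). The call was lost in 8 of 18 alternatives, among them edgeR's quasi-likelihood test (adjusted p = 0.0573) and the omission of any 1 library other than clone 2-1, with adjusted p up to 0.322 without the first parental library. DESeq2 called it (1.06, adjusted p = 0.000432).

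Idh3g, the gamma subunit of the isocitrate dehydrogenase that supplies NADH to complex I, was the gene that was lower. Its level was 138 and 146 RPM in parental cells and 85.4, 86.1, 90.0 and 90.0 RPM in the clones. The clones were close together and all below the parental cells, with a log2 difference of -0.68 ± 0.17 (limma adjusted p = 0.0397). The call was lost in 10 of 18 alternatives, which include both changes of scaling and leaving out any of the 6 libraries. The file places this TSS on chromosome 1 (rn5 chr1:152747869-152748005), whereas RefSeq GRCr8 places Idh3g on chromosome X, so that the gene this TSS belongs to is uncertain. With cAMP the same TSS was at 94.5 RPM in control and 98.2 RPM in treated cells (log2 difference of 0.07, not called).

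**Figure D4:**
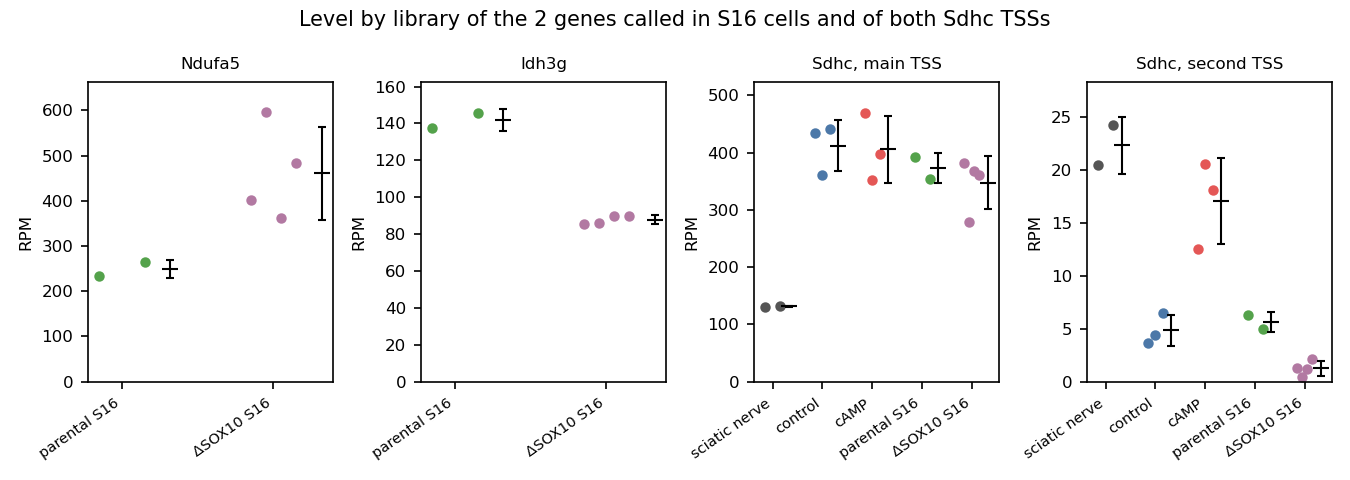
RPM per library for Ndufa5 and Idh3g in parental and ΔSOX10 S16 cells, and for the main and second TSS of Sdhc in all 5 groups (points, linear axes from 0, black marks for the mean and 1 SD). All clones lie above the parental cells for Ndufa5 and below them for Idh3g, and the second Sdhc TSS is highest in nerve and cAMP-treated cells.

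Several genes came close to the threshold, mostly downwards. Mrpl48 was at 91.2 and 105 RPM in parental cells and 53.4, 66.5, 58.6 and 55.3 RPM in the clones, without overlap (log2 difference of -0.74, limma adjusted p = 0.0524), and edgeR's exact test called it (-0.75, adjusted p = 0.0278). Atp5mc2 was at 1147 ± 68.2 RPM in parental cells and 756 ± 75.2 RPM in the clones (-0.61, adjusted p = 0.0564), and it was called by DESeq2 (-0.46, adjusted p = 0.0167) and edgeR's exact test (-0.60, adjusted p = 0.0485). Ndufs4 was at 195 and 126 RPM (-0.62, adjusted p = 0.0599) and Atp5pd at 1212 and 809 RPM (-0.58, adjusted p = 0.0684). Each of these values is to be read beside the median of -0.17 over all genes.

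By family, the median log2 difference between ΔSOX10 and parental cells was -0.17 for complex I, -0.17 for complex IV, -0.15 for the ATP synthase, -0.32 for the large and -0.048 for the small mitochondrial ribosomal subunit, -0.29 for TIM and 0.12 for TOM. With median-ratio factors the medians were -0.025 for complex I and -0.023 for complex IV, that of the ATP synthase was 6.8e-05, that of the small ribosomal subunit turned to 0.10, that of TOM was 0.27 and those of the large ribosomal subunit and TIM stayed negative, at -0.18 and -0.15. The ATP synthase sum was 7608 ± 115 RPM in parental cells and 6305 ± 414 RPM in the clones, and that of the large ribosomal subunit was 2396 ± 18.8 and 2038 ± 143 RPM. The TOM sum was 985 ± 27.6 and 1017 ± 78.3 RPM. With median-ratio factors over the 14 libraries the ATP synthase sum was 7220 ± 377 in parental cells and 6769 ± 166 in the clones. That of the large ribosomal subunit was then 2272 ± 66.6 and 2192 ± 160, and that of TOM 934 ± 8.47 and 1095 ± 104. Clones differed widely in the TIM sum, at 936 and 883 RPM in clones 1-1 and 2-1 and at 620 and 617 RPM in clones 1-2 and 2-2, against 844 RPM in both parental libraries. Timm23, its most abundant gene, was at 485 and 471 RPM in clones 1-1 and 2-1, at 260.0 and 305 RPM in clones 1-2 and 2-2, and at 450.0 and 452 RPM in parental cells. Clones whose names share a first number were not alike for this gene. Mrpl28 was at 1.67 and 1.45 RPM in parental cells and at 0.229, 0.686, 0 and 0 RPM in the clones (log2 difference of -1.09, limma adjusted p = 0.144), and clones 2-1 and 2-2 had no reads there. For Mrps24, the clones were at 7.80, 10.1, 3.63 and 30.9 RPM against 6.10 and 7.39 RPM, and its difference of 0.51 (adjusted p = 0.748) became -0.0071 without clone 2-2. Whether the TSS overlapped a SOX10 peak made little difference to the medians, -0.17 for the 77 that did, with both called genes among them, and -0.20 for the 21 that did not. Of all candidate genes, 1.65% of those on a peak were higher and 4.85% lower, and 2.89% and 7.23% of those beside one.

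Beside the TSS that stands for each gene, the set held further candidate TSSs, of which 23 were tested with cAMP and 2 were called, against 23.8% of the 4119 TSSs tested. The second TSS of Sdhc (rn5 chr13:94147060-94147149, minus strand) lay 591 bases from the main one (rn5 chr13:94146437-94146469) and overlapped a SOX10 peak. It was at 3.64, 4.42 and 6.45 RPM in control and at 12.6, 20.5 and 18.1 RPM with cAMP, a mean of 4.84 ± 1.45 against 17.1 ± 4.07 RPM. All treated libraries were well above all controls, a rise of 1.63 ± 0.40 on the log2 scale (limma adjusted p = 0.0043), while the main Sdhc TSS was level (412 and 406 RPM). In nerve it was at 20.4 and 24.2 RPM, above all cultures except for 1 cAMP library, which lay just above the lower nerve value.

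In S16 cells the second Sdhc TSS was at 6.28 and 4.95 RPM in the parental libraries and 1.27, 0.407, 1.202 and 2.14 RPM in the clones. Every clone was below both parental libraries, but the log2 difference of -1.60 was not called (limma adjusted p = 0.0619). The second called TSS was a minor one of Tomm22, an import receptor, at 3.12, 1.85 and 3.19 RPM in control and 0, 0 and 0.0147 RPM with cAMP (log2 difference of -1.87, adjusted p = 0.0228). Treated libraries held next to no reads there. In the S16 comparison 22 further TSSs were tested and none was called by limma, with 2 at an unadjusted p below 0.05, against 8.21% of 3875 TSSs called. edgeR and DESeq2 also called none and gave 1 at an unadjusted p below 0.05.

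Other genes of mitochondrial and energy metabolism were read from lists chosen for their function, each at its highest TSS in nerve. Of the 7 tricarboxylic acid cycle genes in the table, of 16 listed, none was called by limma, edgeR or DESeq2 in either comparison, and 0 had an unadjusted p below 0.05 except for 1 with cAMP by DESeq2. Neither did these tools call the 4 of 18 regulators of mitochondrial gene expression (2 at an unadjusted p below 0.05 by limma with cAMP and 1 in ΔSOX10 cells) or the 3 of 26 genes of mitochondrial translation (2 and 1). Of 8 chaperones and processing enzymes, of 17 listed, Hspe1, the co-chaperonin of mitochondria, rose with cAMP by 0.26 (limma adjusted p = 0.0367), while Grpel1, which recharges the import motor, fell by 0.42 (adjusted p = 0.0302) and Pmpcb, a subunit of the protease that removes targeting sequences, fell by 0.60 (adjusted p = 0.0242). DESeq2 called the same genes, and edgeR called Pmpcb alone. Of all genes, 13.5% were higher and 13.9% lower. Mfn1, which fuses outer membranes, rose from 10.6 to 24.4 RPM (log2 difference of 1.23, limma adjusted p = 0.0156) and was the only called gene of 4 in the fusion and fission list, a call that edgeR's quasi-likelihood test did not make. In ΔSOX10 cells none of these chaperones or of the fusion and fission genes was called by limma, edgeR or DESeq2, with 0 at an unadjusted p below 0.05.

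Larger differences were found among carriers and glycolytic enzymes. Slc25a10, the dicarboxylate carrier of the inner membrane, rose with cAMP from 23.3 ± 5.92 to 87.2 ± 19.9 RPM (1.87, limma adjusted p = 1.54e-06) and was lower in ΔSOX10 cells, 22.0 RPM against 70.6 RPM in parental cells (-1.74, adjusted p = 0.0298). It was the only carrier of 10 called with cAMP by limma and edgeR, beside 27.4% of all genes by limma, while DESeq2 also called Vdac1 and Mpc2 higher and Slc25a12 lower. Mpc2, a subunit of the carrier that brings pyruvate into mitochondria, was also lower in ΔSOX10 cells (138 RPM against 232 RPM, -0.75, limma adjusted p = 0.0298), and with median-ratio factors it was at -0.60 and not called (adjusted p = 0.0529). These were 2 carriers of 10, beside 5.5% of all genes lower in ΔSOX10 cells. Of 5 glycolytic genes 3 rose and 1 fell with cAMP in limma, beside 13.5% of all genes higher and 13.9% lower, and edgeR's exact test called 3 higher and none lower. Ldha, which turns pyruvate into lactate, was at 2079 ± 53.8 RPM in control and 3636 ± 232 RPM with cAMP (0.80, adjusted p = 1.06e-10), Gapdh was at 536 and 906 RPM (0.75), Gpi rose by 0.40 and Aldoa fell by 0.21. In ΔSOX10 cells Ldha was at 1439 RPM against 3955 RPM in parental cells (-1.47, adjusted p = 0.00164), and limma and edgeR called no other listed glycolytic gene, while DESeq2 called Aldoa higher (0.51, adjusted p = 0.012). Gapdh was read at 1 of 13 and Aldoa at 1 of 16 candidate TSSs. Gapdh also has many processed copies in rodent genomes, so its counts are uncertain.

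Schwann cell markers moved with both comparisons. Markers were read, like the genes of the set, at the highest TSS of each in nerve. Of 8 listed markers 7 were in the table. Their summed level was 5484, 5325 and 5443 RPM in control and 7293, 6514 and 6750 RPM with cAMP, where 4 rose and 2 fell, and 3755 and 3569 RPM in parental and 15.3, 11.3, 19.6 and 22.7 RPM in ΔSOX10 cells, where 6 fell. In nerve the sum was 58985.5 and 60645.7 RPM. Pmp22 was read at 1 of its 22 candidate TSSs, at a mean of 36231 RPM in nerve, 1.29 RPM in control and 524 RPM in parental cells. Other TSSs of the markers are not in these sums. The markers that fell with cAMP were Ngfr (2622 to 794 RPM) and S100b (1879 to 1580 RPM), the most abundant in control. Of 6 fibroblast markers 2 were in the table. Col1a1, the most abundant, was at 857 RPM in control and 427 RPM with cAMP (log2 difference of -1.01), at 2485 RPM in parental and 4137 RPM in ΔSOX10 cells (limma adjusted p = 0.127, though called higher by DESeq2) and at 103 RPM in nerve, while Pdgfra was near 0 in the cultures. Of the leukocyte markers, Csf1r was at 4.82 and 1.07 RPM in nerve and at 0 in the primary cells. None of the listed endothelial, adipocyte and muscle markers was among the candidate genes, so these markers were not analysed here. The part of these marker differences in the values above was not tested.

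Levels in culture were set beside those in nerve as a description only, because nerve values chose the TSS of each gene and nerve libraries were sequenced on another instrument type (HiSeq) than those of the primary cells (NovaSeq), so that instrument and tissue cannot be told apart for the latter. Of the 98 genes, 84 were above both nerve libraries in every control library, 84 in every cAMP library, 77 in both parental S16 libraries and 61 in all ΔSOX10 libraries. Over all candidate genes the shares were 59.6%, 58.5%, 52.5% and 40.6%. Below both nerve libraries in every library of the group were 1, 1, 7 and 6 members, and 14.6%, 12.9%, 22% and 21.6% of all genes. The median log2 ratio to nerve was 0.94 in control, 1.06 with cAMP, 0.94 in parental and 0.84 in ΔSOX10 cells for the set, and 0.87, 0.83, 0.57 and 0.40 for all genes. RPM are shares of a fixed total, and in nerve the highest TSS of Pmp22 was at a mean of 36231 RPM and that of Mbp at 8379 RPM. The listed Schwann cell markers, each at its highest TSS in nerve, summed to 58985.5 and 60645.7 RPM in nerve. Why most of the members were lower in nerve in RPM was not tested. Median-ratio factors over the 14 libraries reduce the weight of very abundant genes. With them the counts above nerve were 29 in control, 35 with cAMP, 43 in parental and 36 in ΔSOX10 cells, with 36, 26, 26 and 22 below. Under that scaling 31.6%, 28.2%, 32.04% and 26.9% of all candidate genes were above and 32.1%, 30.7%, 37.6% and 32.5% below.

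By family and in RPM, all 11 ATP synthase genes, all 5 complex IV subunits, both genes each of complexes II and III and all 4 TOM genes were above both nerve libraries in every control library. The family medians in control were 1.07 for the ATP synthase, 1.26 for complex IV, 1.39 for TOM and 0.64 for complex I on the log2 scale. With the median-ratio factors they were 0.076, 0.26, 0.39 and -0.37, so that the direction flipped for complex I, and 4 of 11 ATP synthase genes, 3 of 5 complex IV subunits and 3 of 4 TOM genes were above both nerve libraries. Of the complex I assembly genes, 0 of 3 were above both nerve libraries in parental S16 cells, with a median log2 ratio of 0.42 in RPM.

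**Figure D5:**
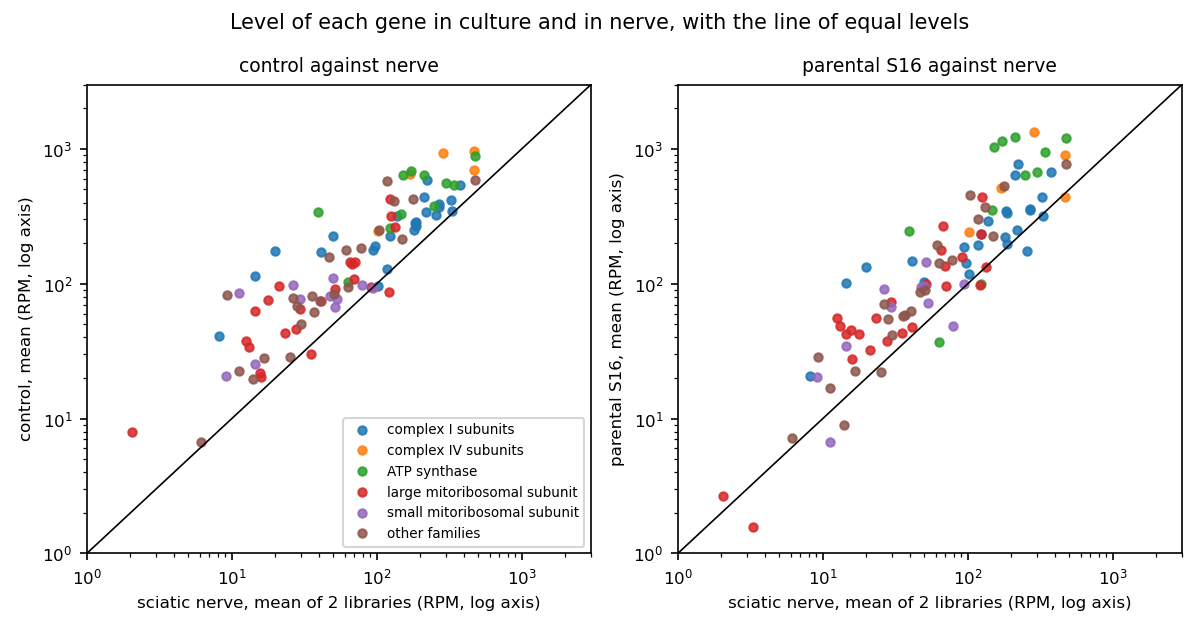
Mean RPM of each gene in control primary cells (left) and parental S16 cells (right) against its mean in nerve, both axes logarithmic, with the line of equal level. Most points lie above the line. Mrpl28, at 0 in control cells, is not on the left panel.

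The genes that stood highest over nerve in parental S16 cells were of the ATP synthase and complex I. Atp5f1b, the catalytic beta subunit of the ATP synthase, was at a mean of 152 RPM in nerve and 1041 RPM in parental cells (log2 ratio 2.76), Atp5mc2 at 171 and 1147 RPM (2.74) and Ndufv1, the subunit of complex I that oxidises NADH, at 14.5 and 102 RPM (2.73). Ndufa10 followed with 20.0 and 134 RPM (2.68) and Atp5f1a with 39.2 and 248 RPM (2.63). At the other end were Atp5j, a coupling factor of the ATP synthase, at 63.5 RPM in nerve and 37.2 RPM in parental cells (-0.76), Mrpl28 with a log2 ratio of -0.74, and Mrps18c at 79.6 and 48.5 RPM (-0.70). Mrps24 was at 11.2 RPM in nerve and 6.75 RPM in parental cells (-0.66) but at 85.9 RPM in control primary cells.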

How the data were processed

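Tn5Prime libraries of 14 RNA samples were sequenced on HiSeq (nerve and S16) or NovaSeq (primary cells) instruments. According to the submitters' processing notes and the study's methods, the authors trimmed reads with cutadapt 1.14, mapped them with STAR 2.5.2a to rn5, wrote alignments with SAMtools 1.9, took the first base of each read with Make_CTSS, grouped these bases into TSSs using Paraclu and summed reads per TSS in featureCounts (Subread 1.6.1). TSSs were assigned to genes by position, through mouse genes where no rat gene was annotated. How reads that map to several places were counted is not given in the sources used here, so genes with processed copies are uncertain. The deposited values are RPM, reads scaled to the total of the whole library, for the 4993 candidate TSSs. The deposited table also holds log2 fold changes and FDR values of the authors' edgeR 3.24.3 comparisons, which were not used.

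RPM are not counts, so log2(RPM + 1) was fitted with limma 3.58.1 (lmFit, eBayes with trend) in R 4.3.3 over the 6 libraries of each comparison, keeping those TSSs that passed 1 RPM in 2 or more of them. P-values were two-sided, with Benjamini-Hochberg adjustment across the whole table of tested TSSs (4119 for cAMP, 3875 for ΔSOX10), with a threshold of 0.05, and were not adjusted over the set alone. Whole reads could be recovered from the values (within 0.01 of a read for 100% of values, except 91.5%, 91.2%, 92.2% and 92.5% in both parental libraries and clones 1-1 and 1-2, where the rest had been rounded), and edgeR 4.0.16 and DESeq2 1.42.0 were run on them as alternatives. The other alternatives were median-ratio and TMM scaling, other filters and pseudocounts (0.1 and 5), each library left out, all 14 libraries in 1 model, TSSs summed per gene, another choice of TSS, and the replicate number as a block. The scripts were tested on simulated data with 200 changed TSSs, drawn from all candidate TSSs rather than from the set. The main test found 55% of 2-fold and 83% of 4-fold changes in the cAMP design. In the ΔSOX10 design it found 31% and 77%. A gene that was not called may therefore still differ.

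Same-numbered control and cAMP libraries did not deviate together (correlations of 0.0294, 0.00751 and 0.0379 over 4119 TSSs), so the numbers were not taken as pairs. P-values measure the spread between these libraries, which for parental cells is that of 2 RNA samples of 1 line. No molecular identifiers are named in the sources, so the detection limit of 3 reads covers counting error only. Named genes were mostly those called, those with the largest differences, the most abundant of each family, and those at the ends of the nerve comparison. Not every gene of these kinds is named. Others, among them Sdha, Uqcrc1, Atp5mc3 and Ndufs4, were named beside them. The members, gene lists and tests were chosen with earlier results of these data known. Promoter windows are RefSeq's (GRCr8), and 10 genes had none. Coordinates are as in the deposited table.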

Additional observations from a re-analysis of the deposited data

Results flagged for a closer look

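In the 4 ΔSOX10 clones, 1 clone stood apart from the other three for 4 of the 41 genes looked at, by Dixon's ratio of the gap to the range at its 95% critical value. Chance gives about 1 such case in 20 groups. Atp5f1c was at 403, 340, 400 and 402 RPM in clones 1-1, 1-2, 2-1 and 2-2 (ratio 0.943). Ndufb9 was at 744, 665, 741 and 753 RPM (ratio 0.856) and Cox19 at 63.4, 39.8, 68.2 and 66.4 RPM (ratio 0.831). In these 3 genes clone 1-2 was the lowest, and clone 1-2 also had the lowest share of its reads in candidate TSSs of the 14 libraries, 28.7%, against 34.9%, 33.4% and 35.1% in the other clones and 29.5% and 30.7% in nerve. Clone 1-2 also had the lowest median-ratio factor of the clones, 0.869 against 1.03, 0.961 and 1.02. The ratios here are of RPM without that scaling. The part of that share or of scaling in these values was not tested. Mrpl3 was at 20.1, 18.2, 20.1 and 30.7 RPM, with clone 2-2 the highest (ratio 0.846). None of the 4 genes was called between ΔSOX10 and parental cells.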

How the results depend on the processing

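Between cAMP and control, the 18 higher genes became 22 with DESeq2, 9 with edgeR's exact test, 3 in a model of all 14 libraries, and 0 with an added minimum of 1 on the log2 scale. They ranged from 9 to 13 with 1 library left out (9 without control 3 or cAMP 1). The 8 lower genes became 12 with DESeq2, 4 in the model of all 14 libraries and 0 with the added minimum. The members' median ranged from 0.088 to 0.15 with 1 library left out. With the replicate block, 19 were higher and 10 lower, and no paired comparison of S16 libraries was made because clones and parental samples share no numbering. Between ΔSOX10 and parental cells, the 1 higher gene became 0 with edgeR's quasi-likelihood test, without a filter, with a pseudocount of 0.1 and with the added minimum, and ranged from 0 to 1 with 1 library left out. The 1 lower gene became 0 with the quasi-likelihood test, median-ratio or TMM scaling and the added minimum, 3 with the exact test, 2 without a filter or with a pseudocount of 0.1, 7 in the model of all 14 libraries, and 0 without any 1 library. The quasi-likelihood test gave 12 genes at an unadjusted p below 0.05. The median went from -0.17 to -0.018 with DESeq2, -0.025 with median-ratio and -0.026 with TMM scaling, and ranged from -0.20 to -0.11 with 1 library left out. A lone parental sample was assumed to vary like the other groups. Against nerve, median-ratio factors over 14 libraries changed the numbers of genes above both nerve libraries from 84, 84, 77 and 61 to 29, 35, 43 and 36. The difference of Mrps24 reversed to -0.0071 without clone 2-2 and reached 0.92 without clone 2-1. The cause of these changes was not tested. Depth limits the values at or near the 3-read level, such as Mrpl28 in clones 2-1 and 2-2 and the minor Tomm22 TSS with cAMP.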
